A study of Mus musculus with 3 samples.

Results

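Keratin genes were followed across 3 single-cell libraries of mouse dorsal skin. Members were all gene symbols made of Krt and a digit, which leaves out the keratin-associated genes (Krtap, Krtdap, Krtcap), with at least 10 unique molecular identifiers (UMIs, each counting 1 captured RNA molecule) over the 3 libraries together. Of 51 such symbols among 27998 genes 36 passed, and the other 15 had at most 8 UMIs. The members comprised 20 type I keratins, of which 19 lie on chromosome 11 and 1 (Krt18) on chromosome 15, and 16 type II keratins on chromosome 15. By textbook role they were 3 basal-layer genes, 4 suprabasal genes, 4 wound and stress genes, 1 upper-follicle gene, 5 genes of the companion layer and inner root sheath, 6 hair shaft genes, 6 genes of simple epithelia and 7 others.

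Keratins are the intermediate filament proteins of epithelia. A filament is built from heteropolymers that need a type I and a type II partner, so keratins are usually expressed in pairs: Krt5 with Krt14 in the basal layer, Krt1 with Krt10 in the differentiating layers, and Krt6 with Krt16 or Krt17 in the follicle and in wounded epidermis. Krt15 marks basal cells and the follicle bulge, Krt79 the upper follicle and its duct, and Krt77 is a type II keratin of suprabasal mouse epidermis and of ducts.

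The mice were male C57BL/6 aged 7-9 weeks and were in telogen, the resting phase of the hair cycle, when wounded. A full-thickness wound of 1.0 by 0.5 cm was made on each side of the back. The groups were non-lesional skin and the wound bed at 2 and at 7 days after wounding (day 2 and day 7), with 1 library each. No other treatment or allele is named in the labels, and how many animals went into a library is not given there. Cells were released with collagenase D and DNase1. With 1 library per group there was no replicate, so no test between groups was possible, and every interval below is an exact 95% interval for counting error only.

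The libraries held 123088680 (non-lesional), 138046172 (day 2) and 102345327 (day 7) UMIs in 10857, 8707 and 7317 barcodes, of which 9354, 7339 and 4714 were kept as cells. Pairs of libraries shared 14 to 24 barcodes, 8 to 18 among the kept cells. Keratinocyte-like cells were clusters made with the keratins left out and named from 16 other epidermal markers (such as Perp, Sfn, Dsp and Trp63). Keratin levels thus played no part in the clustering or the naming. Keratins were not left out of the doublet scores by which barcodes had been removed before. The keratinocyte-like cells comprised 1519 non-lesional cells (16.2% of kept cells), 1 cell at day 2 (0.0136%) and 89 cells at day 7 (1.89%, interval 1.52 to 2.32%). Whether fewer keratinocytes in the wound bed or fewer released by the digestion gave these shares cannot be told apart. The day 7 keratinocyte-like cells were uneven in depth: their median was 13783 UMIs against 16844 in non-lesional skin, but 6 cells above 100000 UMIs held 35.1% of their UMIs, against 5 cells and 1.72% in non-lesional skin. A level from summed UMIs therefore leans on those few cells, and for day 7 it is given beside the mean of the cells' own levels. The median mitochondrial share was 1.78% in the non-lesional and 2.84% in the day 7 cells, and its part in the differences below was not tested.

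The promoters of 5 members are shown. The first 2 belong to genes whose summed day 7 level was near the non-lesional one, the other 3 to genes whose summed level was lower (values below). Each is the 250 bases before the RefSeq start, from the table for GRCm38.p6, on the minus strand, and capitals mark the motif TATAAA, the motif ATAAAA or the motif TATATA in the printed direction.
Krt5: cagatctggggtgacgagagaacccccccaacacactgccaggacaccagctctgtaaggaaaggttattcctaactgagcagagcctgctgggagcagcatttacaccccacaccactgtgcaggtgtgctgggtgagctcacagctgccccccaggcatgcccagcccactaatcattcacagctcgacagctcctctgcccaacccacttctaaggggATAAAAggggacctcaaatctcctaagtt
Krt79: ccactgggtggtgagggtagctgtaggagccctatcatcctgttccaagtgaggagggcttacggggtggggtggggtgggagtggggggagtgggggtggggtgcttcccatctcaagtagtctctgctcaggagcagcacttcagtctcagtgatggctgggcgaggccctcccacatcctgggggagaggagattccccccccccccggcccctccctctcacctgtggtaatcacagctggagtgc
Krt77: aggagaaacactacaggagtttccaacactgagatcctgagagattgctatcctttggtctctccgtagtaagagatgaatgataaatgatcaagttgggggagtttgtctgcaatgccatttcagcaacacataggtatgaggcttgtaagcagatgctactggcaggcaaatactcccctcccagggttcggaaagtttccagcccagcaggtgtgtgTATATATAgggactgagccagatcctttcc
Krt78: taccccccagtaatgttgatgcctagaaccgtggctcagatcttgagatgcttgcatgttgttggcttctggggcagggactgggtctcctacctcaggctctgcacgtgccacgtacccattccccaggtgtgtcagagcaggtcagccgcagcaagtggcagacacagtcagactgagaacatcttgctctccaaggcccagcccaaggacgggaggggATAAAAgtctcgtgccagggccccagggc
Krt23: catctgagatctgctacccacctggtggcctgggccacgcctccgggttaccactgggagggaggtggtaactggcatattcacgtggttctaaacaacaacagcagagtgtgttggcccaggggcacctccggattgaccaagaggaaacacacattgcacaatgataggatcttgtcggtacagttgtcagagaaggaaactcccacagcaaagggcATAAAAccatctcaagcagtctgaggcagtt
They lie at chr15:101712906-101713155 (Krt5), chr15:101940325-101940574 (Krt79), chr15:101869706-101869955 (Krt77), chr15:101954288-101954537 (Krt78) and chr11:99493121-99493370 (Krt23). The capitals begin 29 bases before the start in Krt5 and Krt78, 31 in Krt23, and 30 and 28 (overlapping matches) in Krt77, while the Krt79 window holds none of the 3. The table had promoters for 23 of the 36 members. A match lying within 40 to 16 bases before the start was present in 15 of those 23 (65.2%) and in 3.58% of all 32851 promoters of the same length; the motifs were picked after reading these sequences, TATAAA and ATAAAA can overlap, and a match is a description of letters. The letters TGANTCA (both strands, N any base), found in 6.75% of all promoters, were in none of the 23 windows.

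Summed over the whole library, keratins made up 1.05% of UMIs in non-lesional skin (1288375 UMIs), 0.0901% at day 7 (92231) and 0.00464% at day 2 (6410). Of the keratin UMIs of kept cells, keratinocyte-like cells held 99.0% in non-lesional skin and 94.97% at day 7. At day 2 that share was 2.17%, and the leading keratins were Krt23, Krt10, Krt19 and Krt20, which with 95.5% of the keratin UMIs replaced Krt10, Krt77, Krt14 and Krt1 at the top of the list. Only 1 of the 8707 deposited day 2 barcodes had keratins at 1% or more of its UMIs, against 1537 of 10857 in non-lesional skin and 65 of 7317 at day 7. That lone day 2 cell had 10644 UMIs, with 62 of Krt5, 55 of Krt14, 4 of Krt6a, 3 of Krt17 and 2 of Krt15, and none of Krt1 or Krt10.

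Within keratinocyte-like cells the summed keratin share was 3.34% in non-lesional skin and 3.30% at day 7, which hides a difference per cell. The median cell gave 2.58% of its UMIs to keratins in non-lesional skin (quartiles 1.62 and 3.84%) and 1.11% at day 7 (0.558 and 2.80%). Cells above 1% were 1336 of 1519 (88.0%) in non-lesional skin and 47 of 89 (52.8%) at day 7. Type I UMIs exceeded type II UMIs in both libraries: there were 1.54 type I UMIs per type II UMI in non-lesional skin and 1.44 at day 7 (interval 1.42 to 1.46).

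Each keratinocyte-like cell was placed in a keratin group by its own UMIs: Krt79 positive with at least 2 Krt79 UMIs, otherwise Krt5+Krt14 or Krt1+Krt10 by the pair with more UMIs. The non-lesional cells divided almost evenly, with 536 (35.3%) Krt5+Krt14, 531 (35.0%) Krt1+Krt10 and 446 (29.4%) Krt79 positive cells and 6 ties. At day 7 there were 37 Krt5+Krt14 cells (41.6%, interval 31.2 to 52.5%), 14 Krt1+Krt10 cells (15.7%, 8.88 to 24.98%) and 38 Krt79 positive cells (42.7%, 32.3 to 53.6%). Near the cut of the rule lay 84 non-lesional and 4 day 7 cells with 1 Krt79 UMI and 23 and 3 cells with 2. The pairs were within 2-fold of each other in 54 of the 1073 non-lesional cells below the Krt79 cut and in 1 of the 51 at day 7. Levels of Krt5, Krt14, Krt1, Krt10 and Krt79 between these groups follow from the rule and are given as descriptions.

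**Figure D1:**
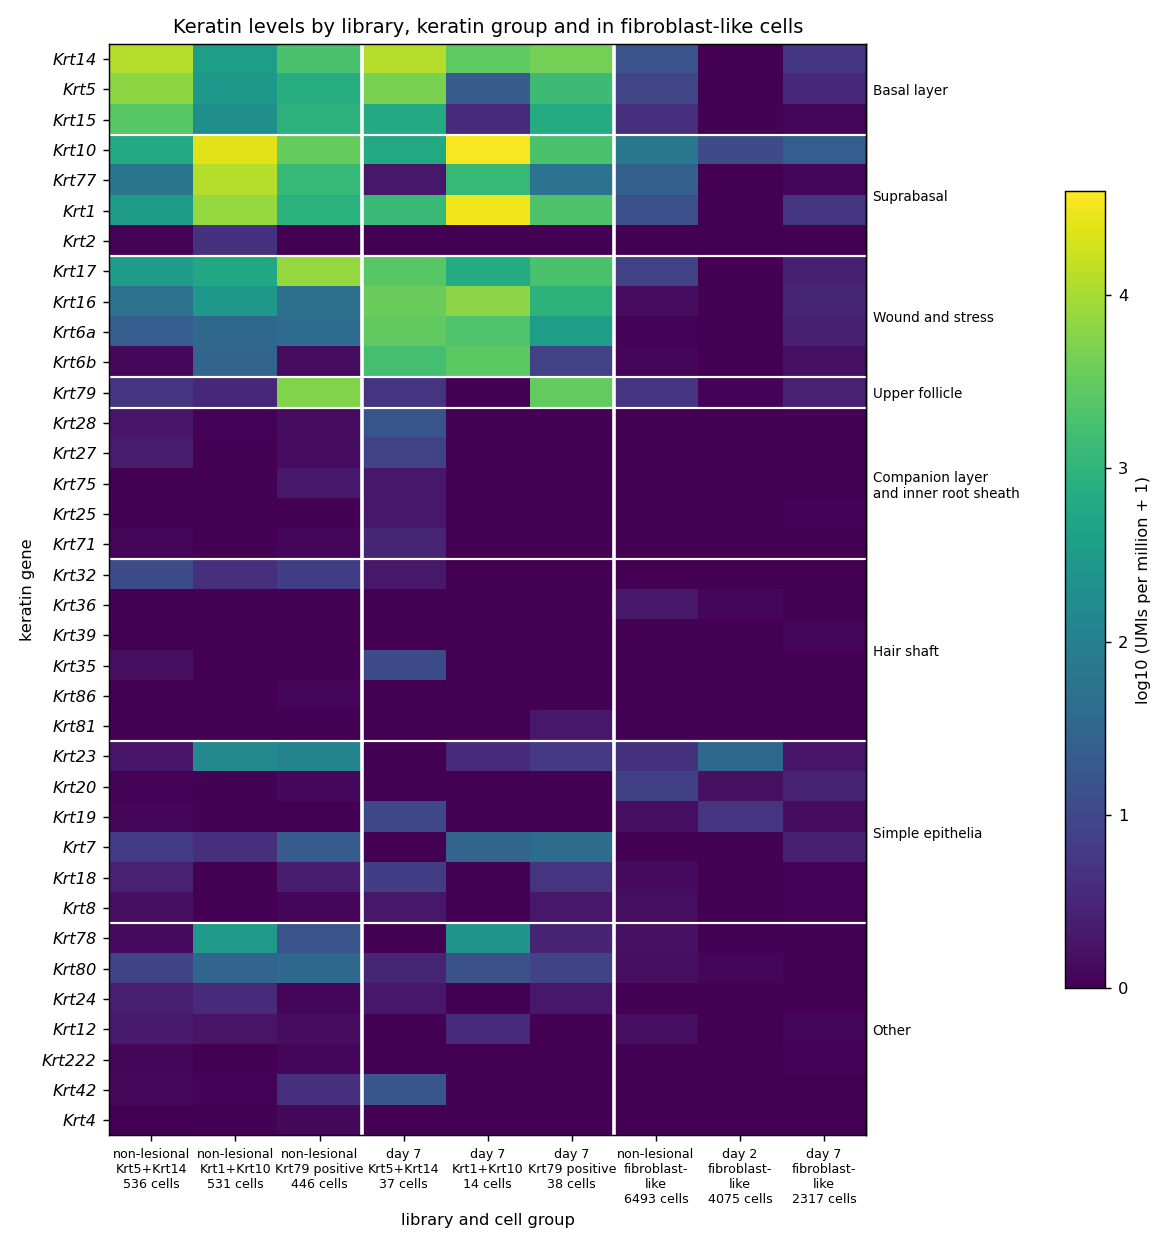
Heat map of the 36 keratins (rows, by textbook role) in the keratin groups of keratinocyte-like cells and in fibroblast-like cells of each library (columns, with cell numbers); colour is log10 of CPM plus 1. Krt6a, Krt6b and Krt16 are bright in the day 7 Krt5+Krt14 and Krt1+Krt10 groups, Krt77 and Krt23 dim from non-lesional skin to day 7, and Krt23 lights up in day 2 fibroblast-like cells.

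In the non-lesional groups, the keratins that the rule did not use fell to one side or another. As CPM (counts scaled to the same total in every set of cells), Krt15 was at 2551 in the Krt5+Krt14 group, 192 in the Krt1+Krt10 group and 920 in the Krt79 positive group. Krt77 had 59.8, 12059 and 1190 in the same order, and Krt78, a further type II keratin, had 0.361, 289 and 14.2. Both were thus highest with Krt1 and Krt10. Krt17 had 341, 574 and 7590, and its level in the Krt79 positive group was the highest of any keratin there. Krt17 was also the most abundant keratin of single cells in 190 of the 446 Krt79 positive cells (42.6%), followed by Krt14 in 96 and Krt79 itself in 73. Krt23, a type I keratin better known from simple epithelia, was at 0.901, 142 and 119 CPM, so near absent only from the Krt5+Krt14 group. Krt80, a type II keratin of many epithelia, was at 7.84, 30.9 and 36.0 CPM. Krt16, a wound keratin, was already present at 51.4, 279 and 48.8 CPM, Krt6a at 23.0, 32.7 and 40.1 CPM, and Krt6b at 0.270, 30.1 and 0.407 CPM. Of 462 Krt6b UMIs in non-lesional keratinocyte-like cells, 86.4% were in 5 cells.

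Between day 7 and non-lesional keratinocyte-like cells, 25 of the 36 members had at least 10 UMIs in the pair and 11 did not. A gene was called when its level differed at least 2-fold after adding 5 CPM to both sides. By this rule 5 members were higher (Krt6b, Krt6a, Krt16, Krt7 and Krt28) and 6 lower (Krt77, Krt23, Krt78, Krt80, Krt32 and Krt15). Over all 13606 genes with at least 10 UMIs, 4.17% were higher and 4.16% lower. The median log2 difference of the 25 members was 0.19 and that of all genes 0.03. With every cell given equal weight, 5 members were higher and 3 lower against 7.06% and 4.55% of all genes; Krt6a, Krt6b, Krt16, Krt28, Krt77, Krt23 and Krt32 were called both ways. Krt28, Krt32 and Krt15 were not called when doublets were kept.

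Krt6a, Krt6b and Krt16, whose products form the wound filaments, differed most upward. Krt6a (chr15:101689910-101694307, type II) had 4772 UMIs in the whole day 7 library, 1132 in the non-lesional and 7 in the day 2 library. In keratinocyte-like cells it was at 1724 CPM at day 7 and 31.1 CPM in non-lesional skin, a ratio of 55.5 (51.8 to 59.4), or 802 against 26.1 CPM with equal weight per cell. Krt6b (chr15:101676023-101680287), its close relative, was at 1150 against 13.7 CPM, a ratio of 83.8 (76.0 to 92.7), or 471 against 8.81 CPM with equal weight. Krt16 (chr11:100246091-100248902), the type I partner, was at 2921 against 153 CPM, a ratio of 19.0 (18.4 to 19.7), or 1113 against 110 CPM with equal weight. All 3 were higher in each keratin group as well: Krt16 had 3592 against 51.4 CPM in the Krt5+Krt14 group, 6438 against 279 CPM in the Krt1+Krt10 group and 949 against 48.8 CPM in the Krt79 positive group. In the Krt79 positive group Krt6b stayed low, at 6.71 CPM (7 UMIs) against 0.407 CPM (3 UMIs), while Krt6a reached 364 CPM. There 6 of the 7 Krt6b UMIs were in 1 cell, and without the fullest cell of each library Krt6b was at 0.984 against 0.272 CPM and no longer called.

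These levels came from few cells. Of the 14191 UMIs of the 3 genes in the 89 day 7 cells, 83.7% were in 4 cells and 94.8% in 10, and 42 cells had none. The cell with most held 1935 Krt6a, 931 Krt6b and 2652 Krt16 UMIs among 195166, beside 6271 of Krt14 and 1766 of Krt5 but 1 of Krt1 and 7 of Krt10. The second held 781, 651 and 1166 with 938 of Krt14, 1218 of Krt1 and 1145 of Krt10, so the 3 genes were abundant in cells of either pair. The third held 658, 696 and 889, again with Krt14 (4113), Krt1 (1178) and Krt10 (581) together. Without the 5 fullest cells of each gene in each library, Krt6a was at 287 against 18.0 CPM, Krt6b at 25.8 against 1.88 CPM and Krt16 at 536 against 86.9 CPM.

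The share of cells tells the same with less weight on depth. At least 1 UMI of the 3 genes was present in 47 of 89 day 7 cells (52.8%, 41.9 to 63.5%) and in 368 of 1519 non-lesional cells (24.2%, 22.1 to 26.5%). After thinning each cell to 1000 UMIs, which left out 5 and 6 shallower cells, the shares were 30.95% (26 of 84, 21.3 to 41.98%) and 5.62% (85 of 1513, 4.51 to 6.90%). For Krt6a alone the thinned shares were 20.2% and 1.32%, for Krt16 25% and 4.56%, and for Krt6b 8.33% and 0.463%. Each thinning is 1 random draw. Another draw gave 13.1% and 1.45% for Krt6a, 22.6% and 4.30% for Krt16, and 10.7% and 0.397% for Krt6b. In fibroblast-like cells, which should lack these genes, thinned shares at day 7 were 0.220% for Krt6a, 0.0881% for Krt6b and 0.352% for Krt16. Non-lesional skin also held strongly positive cells: 38 of 1519 had the 3 genes at 1000 CPM of the cell or more (2.502%), against 23 of 89 at day 7 (25.8%), and the highest single cell reached 30759 CPM without a wound and 28273 CPM at day 7. The libraries thus overlapped in the level of the fullest cells and differed in how many cells were positive.

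**Figure D2:**
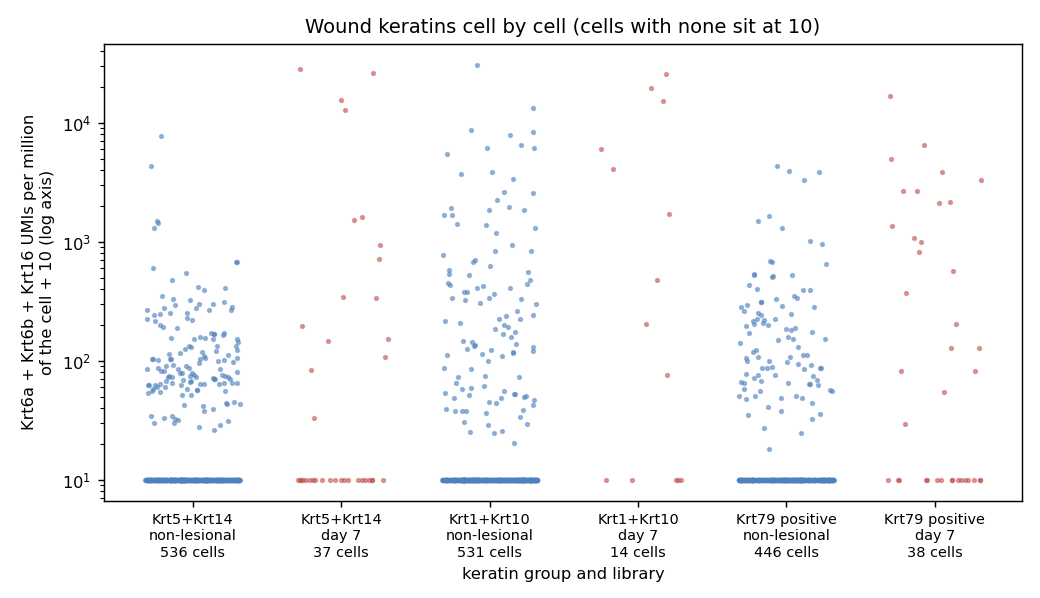
Summed Krt6a, Krt6b and Krt16 CPM of each keratinocyte-like cell, plus 10, on a log axis, by keratin group and library (1 point per cell, spread sideways at random). At the floor sit 42 of 89 day 7 and 1151 of 1519 non-lesional cells, and 23 of 89 day 7 cells against 38 of 1519 non-lesional cells reach 1000 or more.

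The partners did not move in step. There were 0.292 Krt6a and Krt6b UMIs per Krt16 UMI in non-lesional skin (0.276 to 0.310) and 0.984 at day 7 (0.952 to 1.02). By group the values were 0.453 and 1.30 for Krt5+Krt14 and 0.225 and 0.759 for Krt1+Krt10. The Krt79 positive group went the other way, from 0.831 (0.710 to 0.971) to 0.391 (0.347 to 0.440). These intervals do not cover that 83.7% of the day 7 UMIs of the 3 genes were in 4 cells. Counts are of RNA 3' ends, so they are not scaled to length, and capture may still differ between genes. At day 7 there were 0.576 Krt6b UMIs per Krt6a UMI (0.543 to 0.611) in the Krt5+Krt14 group and 1.29 (1.18 to 1.41) in the Krt1+Krt10 group. Both rest on a pair of cells: 1 cell with 400 Krt6b and 37 Krt6a UMIs sets the second, which was 0.850 without it, and the 2 fullest Krt5+Krt14 cells had 0.481 and 1.06. No stretch of 60 bases in the last 500 of their transcripts is shared between Krt6a and Krt6b in GENCODE M21, whereas Krt16 shares 11.3% of such stretches with Gm11597 and Krt14 and Krt17 share 5.22% with each other; how the counting treated such reads is unknown here.

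Krt17, the remaining wound keratin, was level overall and opposite by group. It was at 1957 CPM at day 7 and 2036 CPM in non-lesional keratinocyte-like cells, a ratio of 0.961 (0.933 to 0.990), or 2147 against 2838 CPM with equal weight. In the Krt5+Krt14 group it was at 2505 against 341 CPM, 7.35 times the non-lesional level (6.98 to 7.73). Of the 2540 day 7 UMIs 1123 were in 1 cell, and without the fullest cell of each library the levels were 1534 and 328 CPM. The sub-clusters described below were filled differently in each library. In the Lhx2-led one, which held cells of both, Krt17 was at 2477 against 1782 CPM. It was at 2127 against 379 CPM in the dividing one (8 and 114 cells). In the Plin2-led one (9 and 61 cells), where 51 of 70 cells were Krt79 positive, it was at 167 against 764 CPM. In the Krt79 positive group it was at 1903 against 7590 CPM, 3.99 times lower (3.81 to 4.17). In the Krt1+Krt10 group the values were 685 and 574 CPM, and 110 and 534 CPM without the fullest cell of each library. The next counts leave out Krt5, Krt14, Krt1, Krt10 and Krt79, which the grouping used. In the Krt5+Krt14 group 8 of 18 members tested were higher and 4 lower, where 6.32% of genes were higher and 6.38% lower. Among the 8, Krt42, Krt28, Krt35 and Krt19 had only 16, 15, 11 and 9 day 7 UMIs. For Krt42 15 of these UMIs were in 1 cell, and for Krt35 10 were. In the Krt79 positive group 3 of 13 were higher and 6 lower, where 4.07% and 5.37% of genes were.

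Krt77 differed most downward among the abundant keratins. It had 219396 UMIs in the non-lesional library, making it second only to Krt10 there, 0 at day 2 and 554 at day 7. Keratinocyte-like cells held it at 5711 CPM without a wound and 217 CPM at day 7, 26.3 times lower (24.2 to 28.7), or 3698 against 601 CPM with equal weight (6.15 times lower). Cells with a Krt77 UMI were 72.9% of the non-lesional and 14.6% of the day 7 cells, and 45.3% and 9.52% after thinning. Of the 531 day 7 UMIs 95.9% were in 5 cells. By the sub-clusters described below, the 53 Flg-led day 7 cells held 31 (17.7 CPM), the Lhx2-led ones 1, and the dividing and Plin2-led ones 0. The rest lay in the 3 Lor-led and 1 Slurp1-led day 7 cells. Non-lesional Lor-led and Slurp1-led cells held Krt77 at 18717 and 2767 CPM. The deficit held in each keratin group: 1.0 CPM (1 UMI) against 59.8 CPM in the Krt5+Krt14 group, 1206 against 12059 CPM in the Krt1+Krt10 group and 55.6 against 1190 CPM in the Krt79 positive group. In the Krt1+Krt10 group, with 14 cells at day 7, 4 of the 14 members tested that the grouping did not use were higher and 4 lower, where 3.11% of genes were higher and 18.5% lower.

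Krt1 and Krt10, the textbook suprabasal pair, parted at day 7 in summed and equal-weight levels. Krt10 was at 6730 against 12140 CPM, 1.80 times lower (5884 against 9005 CPM with equal weight). Krt1 was at 6456 against 3616 CPM, 1.79 times higher (5106 against 3003 CPM with equal weight), so neither was called. Few cells carried this: 5 held 65.9% of the Krt1 and 68.6% of the Krt10 day 7 UMIs. Without the 5 fullest cells of each gene in each library, both were lower, Krt1 at 2523 against 3481 CPM and Krt10 at 2437 against 11803 CPM. Cells with Krt1 were 37.1% of the day 7 and 61.7% of the non-lesional cells. Inside the Krt1+Krt10 group Krt1 was at 31715 against 7376 CPM, 4.30 times higher (4.22 to 4.38), and Krt10 at 35501 against 24886 CPM, 1.43 times higher. Because Krt1 and Krt10 set that group, these are descriptions. Krt1 UMIs per Krt10 UMI were 0.298 in non-lesional skin and 0.959 at day 7. When the type II UMIs of Krt1 and Krt77 were summed, there were 0.768 (0.765 to 0.772) per Krt10 UMI in non-lesional skin and 0.992 (0.970 to 1.01) at day 7, so the sum differed far less than either gene. In non-lesional skin Krt77 gave 1.58 UMIs per Krt1 UMI and at day 7 it gave 0.0336. Krt2, the remaining suprabasal member, had 54 UMIs in non-lesional keratinocyte-like cells and 0 at day 7.

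Other keratins of differentiated cells were lower too. Krt23 had 4128 UMIs in the day 2 library, 3573 in the non-lesional and 71 in the day 7 library. In keratinocyte-like cells it was at 91.9 CPM without a wound and 2.45 CPM (6 UMIs) at day 7, 37.5 times lower (17.2 to 102). With equal weight it was at 78.1 against 4.17 CPM. Krt78 was at 133 and 39.2 CPM, 3.40 times lower summed, but 83.1 against 59.1 CPM with equal weight, and 289 against 240 CPM in the Krt1+Krt10 group. Krt80 was at 24.5 and 6.13 CPM summed and at 24.4 and 21.8 CPM with equal weight. The calls for Krt78 and Krt80 were lost with equal weight, those for Krt77 and Krt23 were not.

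Krt5 and Krt14 of the basal layer differed less than 2-fold in summed and in equal-weight levels. Krt5 (chr15:101707070-101712898) was at 2578 CPM at day 7 and 2446 CPM in non-lesional cells, and Krt14 (chr11:100203162-100207548) at 7297 and 4705 CPM. With equal weight both leaned the other way, 1797 against 2337 CPM for Krt5 and 3527 against 4520 CPM for Krt14, and neither passed the 2-fold rule either way. Without the 5 fullest cells of each gene in each library, Krt5 was at 1309 against 2348 CPM and Krt14 at 2804 against 4521 CPM. In the Krt5+Krt14 group Krt14 was at 12098 against 12465 CPM, but 6271 and 4113 of its 12267 day 7 UMIs were in 2 cells. Without the 2 fullest cells of each library it was past 2-fold lower there. Krt14 was present in 85.4% of day 7 and 71.2% of non-lesional cells. In the day 7 Krt1+Krt10 group Krt14 was at 2915 CPM against 384 CPM, but 938 and 194 of its 1141 UMIs were in 2 cells. Without the 2 fullest cells of each library it was at 47.5 against 335 CPM, and the share of cells with Krt14 was 42.9% against 47.8%. Krt5 was at 20.4 against 284 CPM in that group. Krt5 UMIs per Krt14 UMI were 0.520 in non-lesional skin and 0.353 at day 7. The 2 cells with most day 7 Krt14 UMIs also held 1766 and 734 of the 6312 Krt5 UMIs, so that ratio leans on them. With equal weight Krt5 was 1.30 and Krt14 1.28 times lower at day 7. Krt15 was the basal keratin that was called lower in summed levels, at 546 against 1132 CPM (2.07 times, 1.96 to 2.19). With equal weight it was at 637 against 1264 CPM (1.99 times, just under the rule), and the call was also lost with doublets kept. In the Lhx2-led sub-cluster it was the other way, at 1618 against 1155 CPM. It was lower at day 7 in the dividing sub-cluster (1132 against 2502 CPM, 8 day 7 cells). The same held in the Plin2-led one (79.5 against 2755 CPM, 9 day 7 cells). In the Krt5+Krt14 group Krt15 was at 636 against 2551 CPM (4.01 times, 3.71 to 4.34). In single cells of that group the leading keratin was Krt14 in 456 of 536 non-lesional cells (85.1%). At day 7 it was Krt5 in 15, Krt14 in 7, Krt15 in 7 and Krt17 in 6 of 37.

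Krt79, the upper-follicle keratin, was at 1352 CPM at day 7 and 1184 CPM in non-lesional cells, or 1911 and 1839 CPM with equal weight. Because it defines its group, the level inside that group (3169 and 5391 CPM) is a description. Krt79 UMIs per Krt17 UMI in that group were 1.67 at day 7 (1.57 to 1.76) and 0.710 in non-lesional skin (0.701 to 0.720). Krt14 and Krt1 were called higher in it at day 7, at 4274 against 1938 CPM and 2045 against 865 CPM, together with Krt16, Krt6a and Krt6b. For Krt1 1120 of the 2133 day 7 UMIs were in 1 cell. Without the fullest cell of each library Krt1 was at 1011 against 809 CPM and Krt14 at 3672 against 1853 CPM, and neither was called, Krt14 only just (1.98 times, and 2.05 times without the 2 fullest). Cells with Krt1 were 42.1% and 42.2% of the group.

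**Figure D3:**
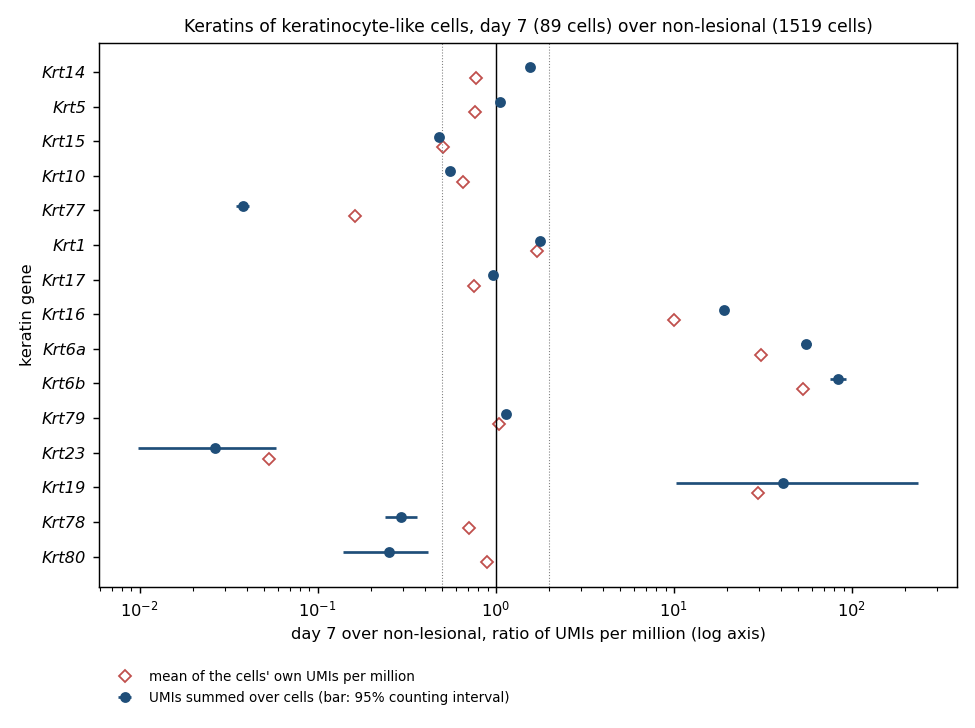
Day 7 over non-lesional ratio of CPM in keratinocyte-like cells on a log axis, for the keratins named above: filled circles from summed UMIs with 95% counting intervals, open diamonds from the mean of the cells' own levels; dotted lines mark 2-fold. Krt6a, Krt6b and Krt16 lie right of 2-fold and Krt77 and Krt23 left of it by both measures, whereas Krt14 and Krt5 change side.

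The remaining 20 members were scarce. Their totals over the 3 libraries ran from 10 to 469 UMIs, and the highest level among them in keratinocyte-like cells was that of Krt7, at 7.57 CPM in non-lesional skin and 22.5 CPM at day 7. Krt7 was called higher, yet 34 of its 55 day 7 UMIs were in 1 cell, and with equal weight it was at 8.54 against 11.5 CPM. Of the inner root sheath keratins, which appear in growing follicles, Krt28 had 15 UMIs in 4 of the 89 day 7 cells and 15 UMIs in the 1519 non-lesional cells, and Krt27 had 7 and 17. The hair shaft keratin Krt35 had 11 UMIs at day 7, of which 10 were in 1 cell, and 6 in non-lesional cells. Krt32, another hair shaft keratin, went from 208 UMIs (6.18 CPM) to 1 UMI (0.408 CPM). Krt19 had 9 UMIs in 4 day 7 cells and 3 in non-lesional cells, and Krt18 had 10 UMIs in 3 and 28.

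A finer division showed where each keratin sat. The keratinocyte-like cells were clustered again with the keratins left out, which gave 14 sub-clusters, called here by their leading other genes; these settings were chosen after seeing the data. In non-lesional skin the cells led by Igfbp3 and Thy1 (203) held Krt14 at 14409 CPM and Krt5 at 7674 CPM, and the 153 cells led by Lor held Krt10 at 30125 and Krt77 at 18717 CPM with Krt78 at 433 and Krt23 at 343 CPM. Lor encodes loricrin, a main protein of the cornified envelope, so Krt77 was highest where a late differentiation gene led. The 154 non-lesional cells led by Slurp1 held Krt17 at 15243 and Krt79 at 9255 CPM, with Krt23 at 289 CPM and Krt5 at 9.88 CPM. The cells led by Mt4 and BC100530 (125, all non-lesional) held Krt6b at 61.4 CPM, of which 140 of 143 UMIs were in 1 cell, Krt6a at 68.6 CPM and Krt16 at 257 CPM. The Lor-led cells held more of the UMIs, with 59.5% of Krt6b (42.8 CPM) and 56.9% of Krt16 (457 CPM) of non-lesional keratinocyte-like cells.

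At day 7, 53 of the 89 cells fell into a sub-cluster led by Flg, BC100530 and S100a8 that had 2 non-lesional cells, so it cannot be told apart from the library itself. In those 53 cells Krt6a was at 2379 CPM, Krt6b at 1610 CPM and Krt16 at 4086 CPM, beside Krt14 at 9517 and Krt79 at 1662 CPM. Its 55 cells spanned the keratin groups, with 16 Krt5+Krt14, 13 Krt1+Krt10 and 26 Krt79 positive cells. Another 15 day 7 cells lay with 37 non-lesional cells in a sub-cluster led by Lhx2, a transcription factor of follicle stem cells, and there Krt6b and Krt6a were at 0 and 32.02 CPM at day 7 and Krt17 at 2477 CPM, against 1782 CPM in the non-lesional cells. The 8 day 7 cells in the dividing sub-cluster (led by Ube2c and Cdk1) had Krt6a at 348 CPM, Krt16 at 6.82 CPM and no Krt6b, and the 9 in the sub-cluster led by Plin2, a lipid droplet gene, had none of the 3. The Flg-led cells thus held 7145 of the 7152 Krt16 UMIs, 2815 of the 2817 Krt6b UMIs and 4160 of the 4222 Krt6a UMIs of day 7 keratinocyte-like cells. Of the UMIs of the 3 genes, 83.7% were in 4 cells of this sub-cluster. Flg-led names the sub-cluster and not each cell, as the 3 fullest of these cells (73.0%) had 0 Flg UMIs.

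**Figure D4:**
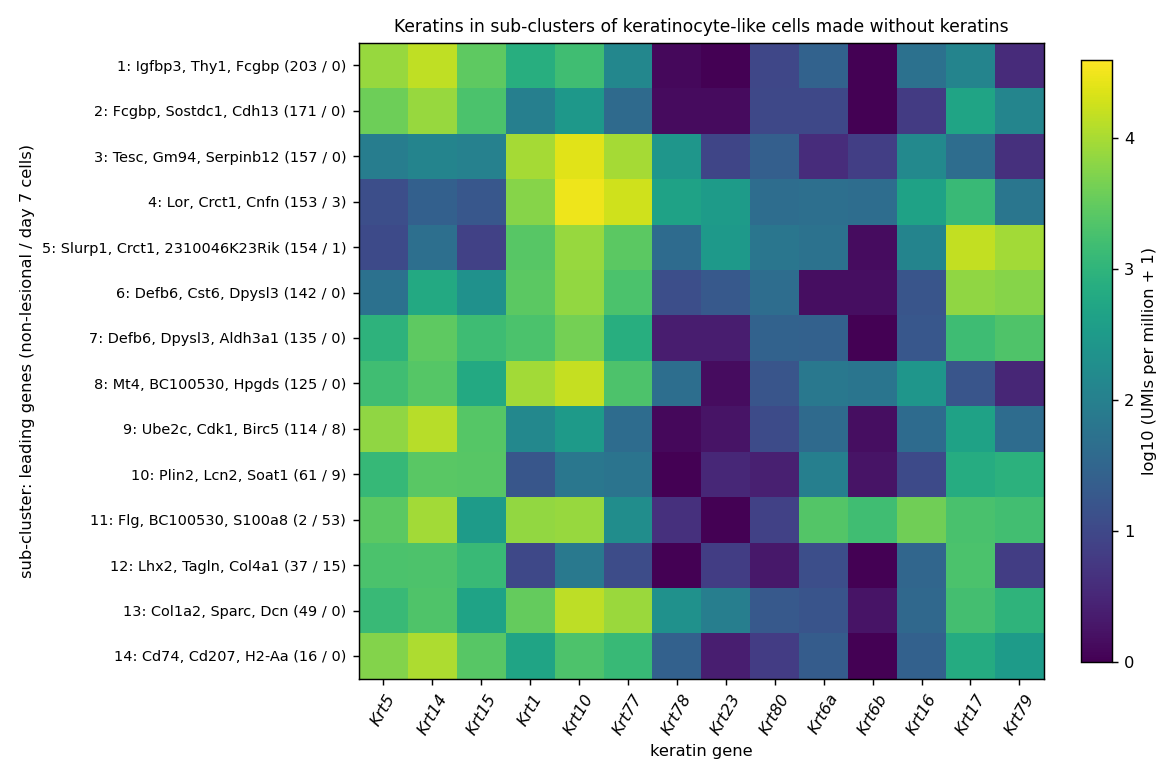
Heat map of 14 keratins (columns) in 14 sub-clusters of keratinocyte-like cells made without keratins (rows, with leading genes and non-lesional / day 7 cell numbers); colour is log10 of CPM plus 1. Krt6a, Krt6b and Krt16 are brightest in the Flg-led sub-cluster of 2 non-lesional and 53 day 7 cells, Krt77 and Krt10 in the Lor-led and Krt17 and Krt79 in the Slurp1-led one.

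Markers of other cell types in the keratinocyte-like cells were measured beside these results. All 6 fibroblast markers (Col1a1, Col1a2, Col3a1, Pdgfra, Dcn, Lum) were detected, summing to 1715 CPM in non-lesional and 1206 CPM in day 7 cells, and a collagen-led sub-cluster of 49 cells and a Cd207-led one of 16 cells were both wholly non-lesional. All 6 neutrophil markers were detected too and summed to 14.4 and 522 CPM, with S100a8 and S100a9, which stressed keratinocytes also make, among them. Both Langerhans markers summed to 29.2 and 9.39 CPM, all 4 T and NK markers to 3.59 and 5.72 CPM, and all 4 melanocyte markers to 1.31 and 56.8 CPM. Of 6 Merkel cell markers 5 and 2 were detected, summing to 2.46 and 1.23 CPM, with Atoh1 at 0 in both. The part of these in the keratin differences was not tested, but without the collagen-led and Cd207-led cells the same 5 members were called higher and the same 6 lower.

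Genes that work with keratins were counted from 4 lists, to be read against the 4.17% higher and 4.16% lower of all genes and their median of 0.03. Of 26 cornified envelope genes 7 were higher and 10 lower at day 7 (8 and 7 with equal weight): Flg at 1324 against 133 CPM, Rptn at 98.4 against 2.08 CPM, Flg2 at 0.817 against 101 CPM and Sprr1a at 224 against 1656 CPM. Flg, Flg2 and Rptn encode related fused S100-type proteins of the granular layer, and they differed in direction. Of 15 desmosome genes, the junctions on which keratins anchor, 2 were higher and 3 lower (1 and 3 with equal weight), the latter being Dsg1a (182 against 648 CPM), Ppl (90.7 against 281 CPM) and Evpl (62.9 against 151 CPM). Of 10 hemidesmosome and basement membrane genes 2 were higher and 0 lower (1 and 0 with equal weight), and Lama3, which encodes a laminin chain, was at 78.8 against 21.1 CPM. With equal weight Lama3 (43.1 against 21.3 CPM) and Evpl (70.2 against 139 CPM) did not pass the rule. Of 18 keratinocyte regulators 3 were higher and 4 lower (3 and 2 with equal weight), with Sox9 at 562 against 151 CPM, Hes1 at 192 against 44.7 CPM, Klf4 at 638 against 1548 CPM and Grhl3 at 23.3 against 77.4 CPM. The median log2 differences of the lists, in that order, were -0.43, -0.41, 0.37 and -0.21.

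Outside keratinocyte-like cells, keratins summed to 160 CPM in non-lesional, 48.0 CPM in day 2 and 51.5 CPM in day 7 cells. Ratios to Krt14 in non-lesional fibroblast-like cells were close to those of keratinocyte-like cells for some keratins and not for others: Krt5 was at 59.4 UMIs per 100 Krt14 UMIs against 52.0, Krt1 at 87.9 against 76.9 and Krt77 at 184 against 121. Krt10 was at 502 against 258. The part of free RNA in these counts was not tested. At day 2, with 1 keratinocyte-like cell, 4075 fibroblast-like cells held 4 Krt14, 2 Krt5, 3 Krt1 and 0 Krt77 UMIs, while Krt10 still had 1195 UMIs (10.8 CPM), in 23.7% of the cells and in 1.57% after thinning. Krt10 was at 2 UMIs in 2037 day 2 neutrophil-like cells. Most of these cells (median 888 UMIs) were too shallow for thinning and were left out. Among the deeper neutrophil-like cells that remained, 0.247% had Krt10 after thinning. The annotated Krt10 gene is overlapped on the opposite strand by Gm11940, and no source used here states whether the counting used strand.

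Krt23 was the keratin that was higher in fibroblast-like cells at day 2, the only member called higher among 20 tested, where 10.9% of 16139 genes were higher. It was at 34.2 CPM (3800 UMIs, 33.1 to 35.3) at day 2, 3.79 CPM in non-lesional and 0.906 CPM in day 7 fibroblast-like cells, a ratio of 9.01 (7.91 to 10.3) for day 2. Of the day 2 UMIs 95.2% lay in the cluster led by Cxcl5 and Serpinb2 (1926 cells, 62.2 CPM, 34.1% of cells), against 3.45 CPM in the cluster led by Saa3 and Prg4 (2116 cells). In non-lesional skin 93.8% lay in the cluster led by Pi16 and Clec3b (15.5 CPM). Thinned shares were 2.91% of day 2 fibroblast-like cells and 0.494% of day 2 neutrophil-like cells, the latter standing for background. Median depths were 26093 and 888 UMIs before thinning, so most neutrophil-like cells were too shallow and were left out of that share.

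Other simple-epithelial keratins were found in the same cells at lower levels. Krt19 was at 3.90 CPM (434 UMIs) in day 2 and 0.490 CPM in non-lesional fibroblast-like cells, and 77.9% of the day 2 UMIs were in the Cxcl5-led cluster. Krt20 was at 6.45 CPM (408 UMIs) in non-lesional fibroblast-like cells against 4 UMIs in all non-lesional keratinocyte-like cells, and at 0.603 CPM at day 2 and 1.75 CPM at day 7. Its highest non-lesional cluster was led by Clec3b and Tnmd (15.1 CPM). In day 7 endothelial-like cells it was at 16.6 CPM (24 UMIs in 14 of 108 cells). Krt36, a hair shaft keratin, had 69 UMIs in non-lesional fibroblast-like cells, of which 65 in the Pi16-led cluster, and 0 in keratinocyte-like cells. Between day 2 and non-lesional fibroblast-like cells 7 members were called lower (Krt77, Krt10, Krt14, Krt1, Krt5, Krt17 and Krt20) where 6.3% of genes were, and between day 7 and non-lesional ones 3 of 24 (Krt77, Krt10, Krt14) where 4.2% were. At day 7 none of the 24 was called higher, where 7.85% of genes were, although Krt7 had 103 UMIs against 3 and Krt6a 99 against 6, below the added 5 CPM in level.

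**Figure D5:**
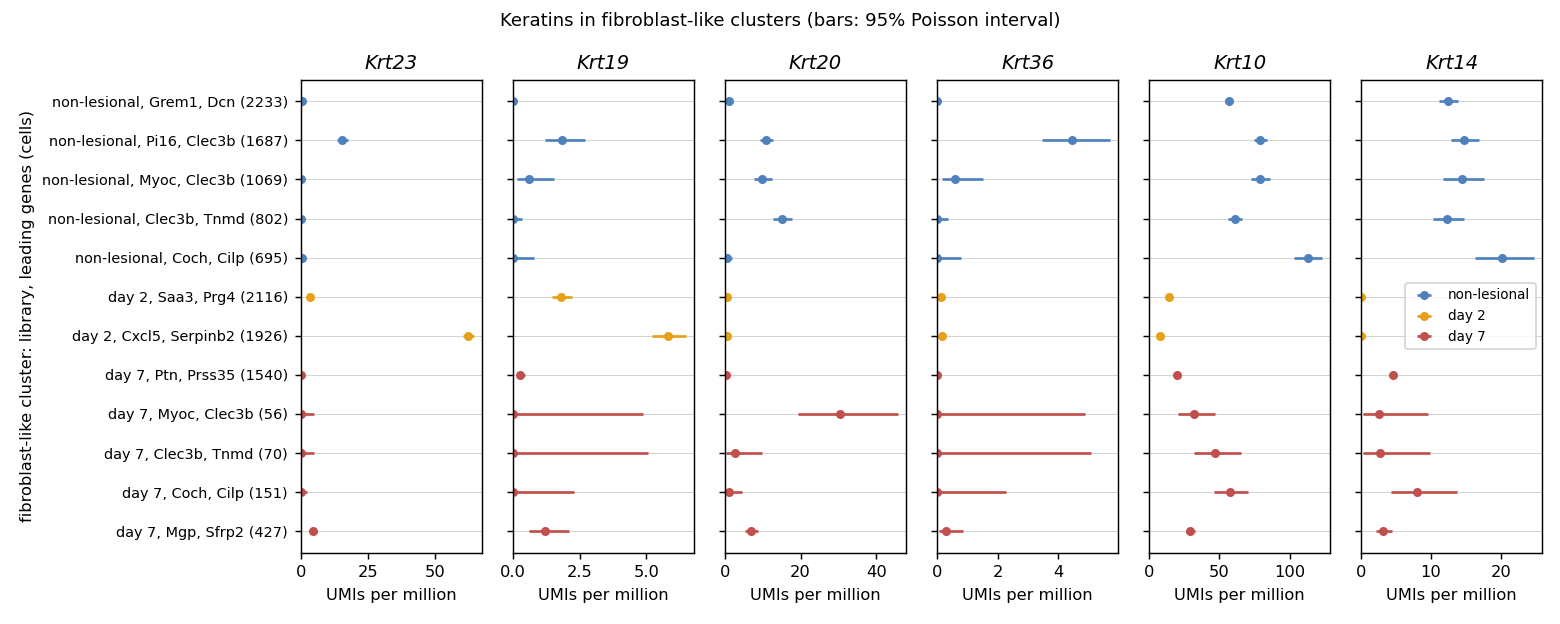
Levels of 6 keratins in CPM (x axis from 0, a scale per gene) in each fibroblast-like cluster of at least 50 cells (rows, with library, leading genes and cell number); points are clusters, coloured by library, and bars 95% Poisson intervals. Krt23 and Krt19 peak in the day 2 cluster led by Cxcl5 and Serpinb2, Krt20 and Krt36 in other clusters, and Krt14 is near 0 at day 2 where Krt10 is not.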

How the data were processed

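The authors deposited whole-number UMI counts for each gene in each barcode. The file headers name Cell Ranger 5.0.0 and the submitters' processing notes Cell Ranger 3.0.2, Seurat 3.0 and mm10; the difference was not resolved. The kit was a 10x 3' v2 kit per the labels. Only the counts were used. Barcodes with under 200 genes or over 10% mitochondrial UMIs were dropped, and the highest Scrublet doublet scores were removed (943, 606 and 428 barcodes). Cells were clustered (scanpy 1.11.5, leidenalg 0.10.2; 2000 variable genes without keratins, 30 components, 20 neighbours, resolution 1) and clusters named from fixed marker lists. UMIs were summed per library and cell group and scaled to CPM. Intervals are exact Poisson, conditional binomial or Clopper-Pearson at 95% and cover counting error only. Calls used a pseudocount of 5 CPM and at least 10 UMIs in the pair. Members with at least 100 CPM in a keratin group or 300 UMIs in a library were named (16), and of each list up to 4 genes past 2-fold with at least 50 CPM. On simulated counts for day 7 against non-lesional cells (13433 genes), 100% of genes set 4-fold higher and 60% of those set 2-fold lower were called. Those genes were abundant in non-lesional cells and the counts had no spread between cells. The rates therefore do not cover scarce members or levels that rest on few cells. Gene positions and sequences came from GENCODE M21 and RefSeq (GRCm38). The members and gene lists were chosen with earlier results of these data known. Mean levels over cells, sub-clusters and promoter motifs were added after seeing the data. The values of 1 gene of the lists are not reported here. Alternatives are described in the closing section.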

Additional observations from a re-analysis of the deposited data

Results flagged for a closer look

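Krt17 differed in opposite directions in a pair of keratin groups under the same contrast. From non-lesional skin to day 7 its log2 difference was 2.86 in the Krt5+Krt14 group and -1.99 in the Krt79 positive group. The difference between the groups was not tested, since each group has 1 library per condition. The day 7 groups held 37 and 38 cells.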

How the results depend on the processing

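With 1 library per group no library could be left out, and no paired analysis was possible because each group has a single library without a replicate number. Of 128 recomputed main values 108 stayed within their counting interval or, for counts, within 1.5 times. With doublets kept, the keratinocyte-like share of non-lesional cells was 17.2%, the keratin share of keratinocyte-like UMIs 3.21% (non-lesional) and 3.12% (day 7), and keratins outside keratinocyte-like cells 192, 45.8 and 59.1 CPM in the 3 libraries; 4 members were called higher and 4 lower, without Krt28, Krt32 and Krt15. With the class given per cell from at least 5 markers and 0.2% of UMIs, the keratin share was 3.31% and 3.19% and the day 7 level outside 48.7 CPM. At most 20% mitochondrial UMIs gave a day 7 keratin share of 3.35%. Members called higher at day 7 were 10 with a pseudocount of 1 CPM, 9 in the Krt5+Krt14 group alone and 3 after thinning to 1000 UMIs, and members called lower were 3 with equal weight per cell, an alternative chosen after seeing the data. Krt6a, Krt6b, Krt16 and Krt77 were called in the same direction under 16 alternatives for all cells or single groups. Leaving out the 1 or 2 fullest cells within a keratin group, added after seeing the data, ended the calls for Krt6b and Krt1 in the Krt79 positive and Krt19 in the Krt5+Krt14 group, turned Krt14 and Krt17 in the Krt1+Krt10 group and Krt1 in the Krt5+Krt14 group, and put Krt10, Krt14 and Krt80 in the Krt5+Krt14, Krt78 in the Krt1+Krt10 and Krt10, Krt15 and Krt79 in the Krt79 positive group past 2-fold lower. A Krt79 cut of 1 UMI gave 32.3% Krt5+Krt14 and 34.9% Krt79 positive non-lesional cells, a cut of 5 UMIs 26.5% Krt79 positive, and thinning 40.6% and 21.1% in non-lesional skin and 27.4% Krt79 positive at day 7; the cause was not tested. TMM scaling moved the median of all genes from 0.03 to -0.06 (log2), added Krt10 to the lower members and dropped Krt28 from the higher ones. Day 7 levels are limited by few deep cells, 4 of which hold 83.7% of the Krt6a, Krt6b and Krt16 UMIs.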
